A study of Mus musculus with 12 samples.

Results

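Txnrd1, Mt1 and Cyb5r3 are 3 genes of redox and metal chemistry among the 5723 genes that had a probe with a single gene symbol. They were chosen by name, and the names had been selected on the response of wild-type glia to IL-1β in these same arrays. The wild-type IL-1β response is therefore given below as a description: whether a gene passed the threshold of the fit is stated, no p is given, and no finding rests on it. They had 4 probes of the 8734 in the value table: probe 6849 for Txnrd1, probe 3506 for Mt1, and probes 8602 and 7571 for Cyb5r3. Probes 6849, 3506 and 8602 had a value on all 10 arrays used, and 7571 had one on 6. Primary mixed glia, kept in culture for 10 to 12 days after isolation, came from IL-1R1-/- mice, which lack a working type 1 receptor for IL-1, and from wild-type mice. Their groups were IL-1R1-/- glia given 10 ng/ml rrIL-1β for 4 hours (2 cultures used), IL-1R1-/- glia given vehicle (2), wild-type glia given the same IL-1β dose (3) and wild-type glia given vehicle (3). The IL-1β and vehicle arrays of a replicate number were a pair, and the replicates were stated to be independent. Strain, age, the deleted part of the receptor gene and the number of animals behind a culture are not stated in the sources used here. The third IL-1R1-/- pair was not used, since both of its columns repeat other columns at a fixed ratio.

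Thioredoxin reductase 1, the product of Txnrd1, is a selenoprotein of the cytosol that uses NADPH to keep thioredoxin reduced, and with it peroxiredoxins and other thiol proteins; its gene is a known target of the transcription factor NRF2. Metallothionein 1, the product of Mt1, is a small cysteine-rich protein that binds zinc and copper and is made in astrocytes among other brain cells; its gene is known to respond to metals through the factor MTF1. Cyb5r3 encodes NADH-cytochrome b5 reductase, which passes electrons to cytochrome b5 for fatty acid desaturation and sterol synthesis. IL-1β signals through IL-1R1, and NF-κB is a main factor downstream of that receptor.

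In GRCm38.p6, Txnrd1 lies at chr10:82833951-82897724, Mt1 at chr8:94178883-94180327 and Cyb5r3 at chr15:83153495-83176440. No position of a probe within its gene was used. RefSeq promoter windows for this build were matched by symbol, which gave 3 for Txnrd1 and 1 for Mt1. The 250 bases before a start are printed for 2 of these windows, because they hold the letters associated with the factors named above. Capitals mark the core of the antioxidant response element bound by NRF2 in Txnrd1 and the core of the metal response element bound by MTF1 in Mt1. Both windows are read 5′ to 3′ on the strand of the gene, the plus strand. The Txnrd1 window is at chr10:82858956-82859205, inside the annotated span of the gene and before an internal start. The Mt1 window is at chr8:94178839-94179088, and most of it, the marked letters included, lies inside the annotated span, because the start used here is downstream of the first base of the gene.
Txnrd1: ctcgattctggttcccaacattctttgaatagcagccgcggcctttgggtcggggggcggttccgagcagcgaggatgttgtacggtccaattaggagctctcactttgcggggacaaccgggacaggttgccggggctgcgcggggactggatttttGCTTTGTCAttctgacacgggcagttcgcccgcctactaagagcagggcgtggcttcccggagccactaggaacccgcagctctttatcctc
Mt1: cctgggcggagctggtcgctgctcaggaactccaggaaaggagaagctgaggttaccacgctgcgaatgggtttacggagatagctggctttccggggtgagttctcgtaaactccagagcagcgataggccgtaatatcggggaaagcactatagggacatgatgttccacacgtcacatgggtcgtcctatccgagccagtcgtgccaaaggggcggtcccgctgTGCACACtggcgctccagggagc
The antioxidant core was searched as TGACNNNGC on both strands. It was on the minus strand of this Txnrd1 window, at positions -92 to -84 from the start, and 10.2% of 32851 windows of the same length hold it. The other two Txnrd1 windows did not hold these letters. The metal core was searched as TGCNCNC on both strands, a loose pattern that leaves the fourth letter open. It was at positions -23 to -17 from the Mt1 start, as TGCACAC. The pattern was also met in the other 2 Txnrd1 windows, as TGCTCAC and TGCCCGC, which differ from Mt1 at the fourth letter. These Txnrd1 letters are matches to the loose pattern only, and 44.4% of all windows hold such a match. The κB consensus was in 3.90% of all windows and in 0 of these 4. These matches are letters in a window and not sites shown to be bound.

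The values are intensities of radio-labelled cDNA on arrays, on a scale that differed between cultures. Medians of the 10 arrays used were 4649 to 60399, and 370 to 1342 probes had no value on them. Levels below are log2 intensities after quantile normalization between arrays, which gives every array the same spread of values. In wild-type glia, changes also varied with the order of the probes in the table, in steps that fit plates of 16 by 24 wells. The changes of the 3 genes, and of the other redox genes named, are therefore also given with this position trend removed. The genotypes overlapped at the Il1r1 probe, with means of 14.06 in IL-1R1-/- IL-1β, 13.96 in IL-1R1-/- vehicle, 14.44 in wild-type IL-1β and 13.87 in wild-type vehicle glia. Where this probe lies against the deletion is not given, so it checks nothing about the labels. Markers of mixed glia were measured (4 of 12 astrocyte, 5 of 15 microglial and 3 of 11 oligodendrocyte markers), while Gfap, Aqp4, Aif1 and Csf1r were not measured by probes used here.

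Txnrd1 was higher with IL-1β in every pair of both genotypes after normalization. In IL-1R1-/- glia its log2 intensity was 15.46 and 16.02 with IL-1β, against 14.77 and 15.59 with vehicle. In wild-type glia it was 16.07, 15.80 and 16.39 with IL-1β, against 15.07, 14.63 and 15.40 with vehicle. The wild-type IL-1β arrays all lay above the wild-type vehicle arrays, while the IL-1R1-/- groups overlapped because replicate 2 was high under both treatments. No share of all probes with groups apart in this way was counted, so nothing is read from the separation. Within pairs the log2 change was 0.69 and 0.43 in IL-1R1-/- glia and 1.00, 1.17 and 0.99 in wild-type glia. Among all tested probes of the same pair these changes stood at the 98.2 and 90.5 percentile in IL-1R1-/- glia and at the 99.2, 97.8 and 98.0 percentile in wild-type glia. In the intensities as deposited, IL-1R1-/- replicate 2 had 156911 with IL-1β and 159887 with vehicle, a log2 change of -0.03, so its increase appears only after normalization.

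Mt1 was lower with IL-1β in every wild-type pair and was higher in both IL-1R1-/- pairs. Its log2 intensity in IL-1R1-/- glia was 16.87 and 17.73 with IL-1β, against 15.93 and 17.63 with vehicle. In wild-type glia it was 19.03, 17.91 and 15.94 with IL-1β, against 19.58, 18.49 and 17.44 with vehicle. The cultures differed from each other by more than the treatments did, and the groups overlapped in both genotypes. Within pairs the log2 change was 0.94 and 0.10 in IL-1R1-/- glia and -0.55, -0.58 and -1.50 in wild-type glia. Wild-type replicate 3 thus had the lowest IL-1β level and the greatest change of the wild-type pairs, and IL-1R1-/- replicate 2 was close to no change. As deposited, that IL-1R1-/- pair had a log2 change of -0.37, and with the position trend removed it had -0.15.

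The bright Cyb5r3 probe, 8602, was lower with IL-1β in every wild-type pair, by an amount that varied. Arrays of IL-1R1-/- glia had log2 intensities of 15.50 and 15.77 with IL-1β, against 15.25 and 15.74 with vehicle. In wild-type glia it was 15.65, 15.09 and 15.52 with IL-1β, against 16.11, 15.97 and 15.78 with vehicle. All wild-type IL-1β arrays lay below all wild-type vehicle arrays, and the IL-1R1-/- groups overlapped. As for Txnrd1, no share of all probes was counted for this separation, and nothing is read from it. Within pairs the log2 change was 0.25 and 0.03 in IL-1R1-/- glia and -0.46, -0.88 and -0.26 in wild-type glia. As deposited, the IL-1R1-/- pairs had -0.02 and -0.41.

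The second Cyb5r3 probe, 7571, gave another picture. Its log2 intensity in IL-1R1-/- replicate 1 was 13.22 with IL-1β, against 12.97 with vehicle. In wild-type replicates 2 and 3 it was 13.92 and 13.30 with IL-1β, against 13.68 and 13.07 with vehicle. All 3 pairs with a value were therefore higher with IL-1β, whereas probe 8602 was lower in those wild-type pairs. Probe 7571 was dim, at the 0.203 to 20.0 percentile of the probes of an array, while 8602 was at the 80.0 to 94.7 percentile. With the position trend removed the changes of 7571 were 0.04 in IL-1R1-/- glia and -0.24 and -0.29 in wild-type glia. The direction of this probe in wild-type glia thus depended on the trend removal, and Cyb5r3 values below are those of 8602 unless 7571 is named.

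**Figure D1:**
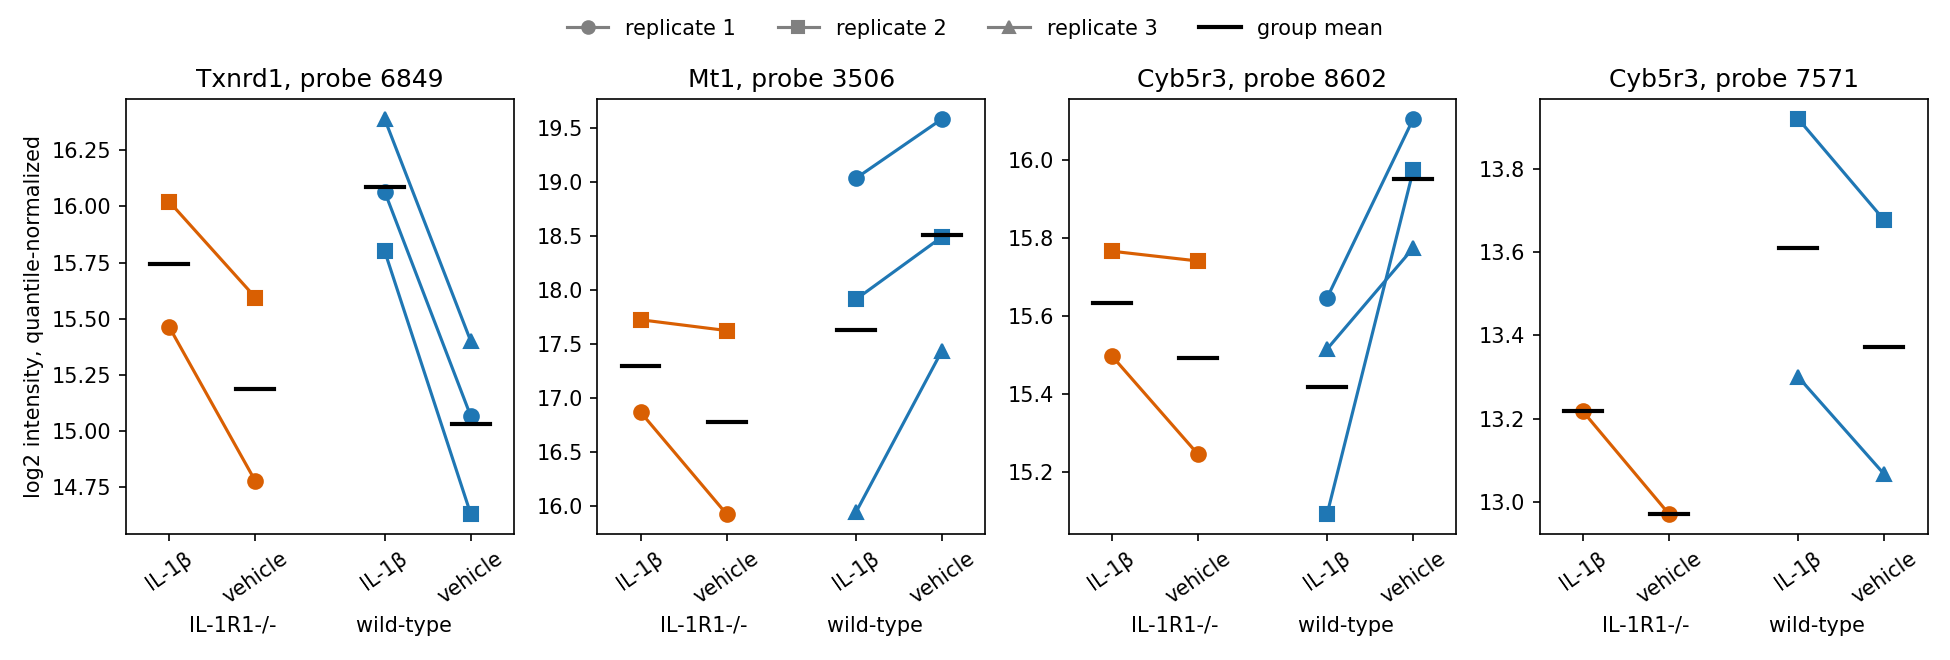
Log2 intensity of each probe after quantile normalization (vertical axis, a separate scale per panel) by genotype and treatment; symbols are replicates, lines join the arrays of a culture and black bars are group means. Txnrd1 is higher with IL-1β in all 5 cultures, while Mt1 and Cyb5r3 probe 8602 are lower with IL-1β in the 3 wild-type cultures.

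The order of the groups differed between the genes. Txnrd1 averaged 16.09 ± 0.29 (SD, n = 3) in wild-type IL-1β, 15.74 ± 0.39 (SD, n = 2) in IL-1R1-/- IL-1β, 15.18 ± 0.58 (SD, n = 2) in IL-1R1-/- vehicle and 15.03 ± 0.39 (SD, n = 3) in vehicle-treated wild-type glia. Each neighbouring pair of groups in this order overlapped. Mt1 averaged 17.63 ± 1.56 (SD, n = 3) in wild-type IL-1β and 18.51 ± 1.07 (SD, n = 3) in vehicle-treated wild-type glia. Without the receptor Mt1 averaged 17.30 ± 0.60 (SD, n = 2) with IL-1β and 16.78 ± 1.20 (SD, n = 2) with vehicle, and neighbouring groups overlapped here too. Cyb5r3 averaged 15.42 ± 0.29 (SD, n = 3) in wild-type IL-1β and 15.95 ± 0.17 (SD, n = 3) in vehicle-treated wild-type glia. Without the receptor it averaged 15.63 ± 0.19 (SD, n = 2) with IL-1β and 15.49 ± 0.35 (SD, n = 2) with vehicle. Only the wild-type vehicle group stood clear of its neighbour for Cyb5r3, also with the position trend removed. This group holds values that chose the genes, and the share of all probes with such a gap was not counted.

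In wild-type glia the fitted change of Txnrd1 with IL-1β was 1.05 ± 0.17 on the log2 scale (SE, n = 3 pairs), which is 2.08-fold higher than with vehicle. Mt1 had -0.87 ± 0.22 (SE, n = 3 pairs), 1.83-fold lower with IL-1β. Cyb5r3 had -0.53 ± 0.18 (SE, n = 3 pairs). Txnrd1 and Mt1, 2 of the 3 genes, passed an adjusted p of 0.05 in limma, where 6.18% of all tested probes did. All 3 genes moved the same way in 3 of 3 wild-type pairs, as did 39.9% of all tested probes. Because the genes were selected on this response, these counts are not a test of it and nothing is read from them. The median of all tested probes was -0.04 and their SD 0.353.

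With the position trend removed the wild-type changes were 0.44 ± 0.12 for Txnrd1, -0.57 ± 0.18 for Mt1 and -0.71 ± 0.12 for Cyb5r3 (SE, n = 3 pairs each). Cyb5r3 alone then passed, 1 of 3 genes against 0.403% of all probes, and Txnrd1 and Mt1 did not. The 24 nearest tested probes, 12 on each side of Txnrd1 in the table, had a median wild-type change of 0.55, which was 0.08 after trend removal. Around Mt1 this median was -0.33, and 0.02 after trend removal. Around Cyb5r3 it was 0.24, opposite in sign to the change of the gene, and 0.15 after trend removal. Txnrd1 and Mt1 thus lay among probes that moved the same way as they did, and Cyb5r3 did not. How much of each wild-type change belongs to position was not tested beyond this removal. The call of Txnrd1 without trend removal held when any 1 culture was left out. That of Mt1 held only without IL-1R1-/- replicate 1, and its change was -0.54 without wild-type replicate 3. Of all tested probes 0.844% to 5.2% were called in these fits. The call of Cyb5r3 after trend removal was lost when any 1 of the 5 cultures was left out, while its change stayed between -0.78 and -0.62. With the trend removed, 0.227% to 0.459% of all tested probes were called with a culture left out. Before trend removal the change of Cyb5r3 was -0.33 without wild-type replicate 2.

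**Figure D2:**
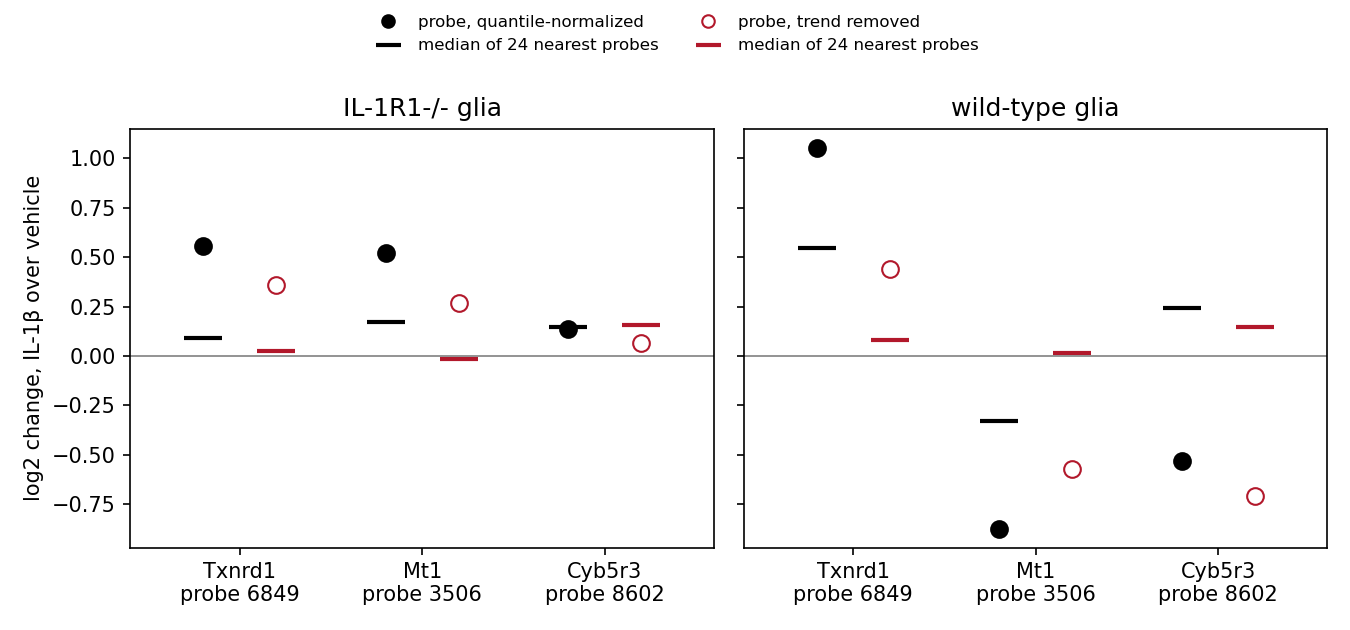
Log2 change with IL-1β over vehicle (vertical axis) for each complete probe (circles) and for the median of its 24 nearest probes in the table (bars), before (black) and after (red) removal of the position trend. In wild-type glia the neighbours of Txnrd1 sit at 0.55 and those of Mt1 at -0.33 before removal, on the same side of 0 as the gene.

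Whether the 3 genes respond without the receptor was tested in IL-1R1-/- glia, whose arrays are not those of the wild-type response. The normalization and the error estimate were shared with the wild-type arrays, so the test is not wholly separate from them. With IL-1R1-/- arrays alone the adjusted p in limma was 0.0863 for Txnrd1, 0.257 for Mt1 and 0.884 for Cyb5r3, where 4.25% of all probes passed. The values that follow are from the joint fit. The fitted change of Txnrd1 was 0.56 ± 0.21 on the log2 scale (SE, n = 2 pairs; limma with Benjamini-Hochberg adjusted p = 0.601), and 0.36 ± 0.15 with the position trend removed (adjusted p = 0.765 in limma). Mt1 had 0.52 ± 0.27 (adjusted p = 0.690 in limma), and 0.27 ± 0.23 after trend removal (adjusted p = 0.954 in limma). Cyb5r3 had 0.14 ± 0.22 (adjusted p = 0.901 in limma), and 0.06 ± 0.15 after trend removal (adjusted p = 0.996 in limma). None of the 3 genes passed, and 0% of all tested probes did. At an unadjusted p under 0.05 limma had 1 of the 3 genes, Txnrd1. That threshold was met by 7.6% of all probes, and by 6.28% after trend removal. All 3 genes were higher in 2 of 2 pairs, as 63.2% of all probes moved one way in both. Over 20 alternatives the adjusted p of Txnrd1 was 0.0863 to 1.00 in limma, so it was called in none of them.

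**Figure D3:**
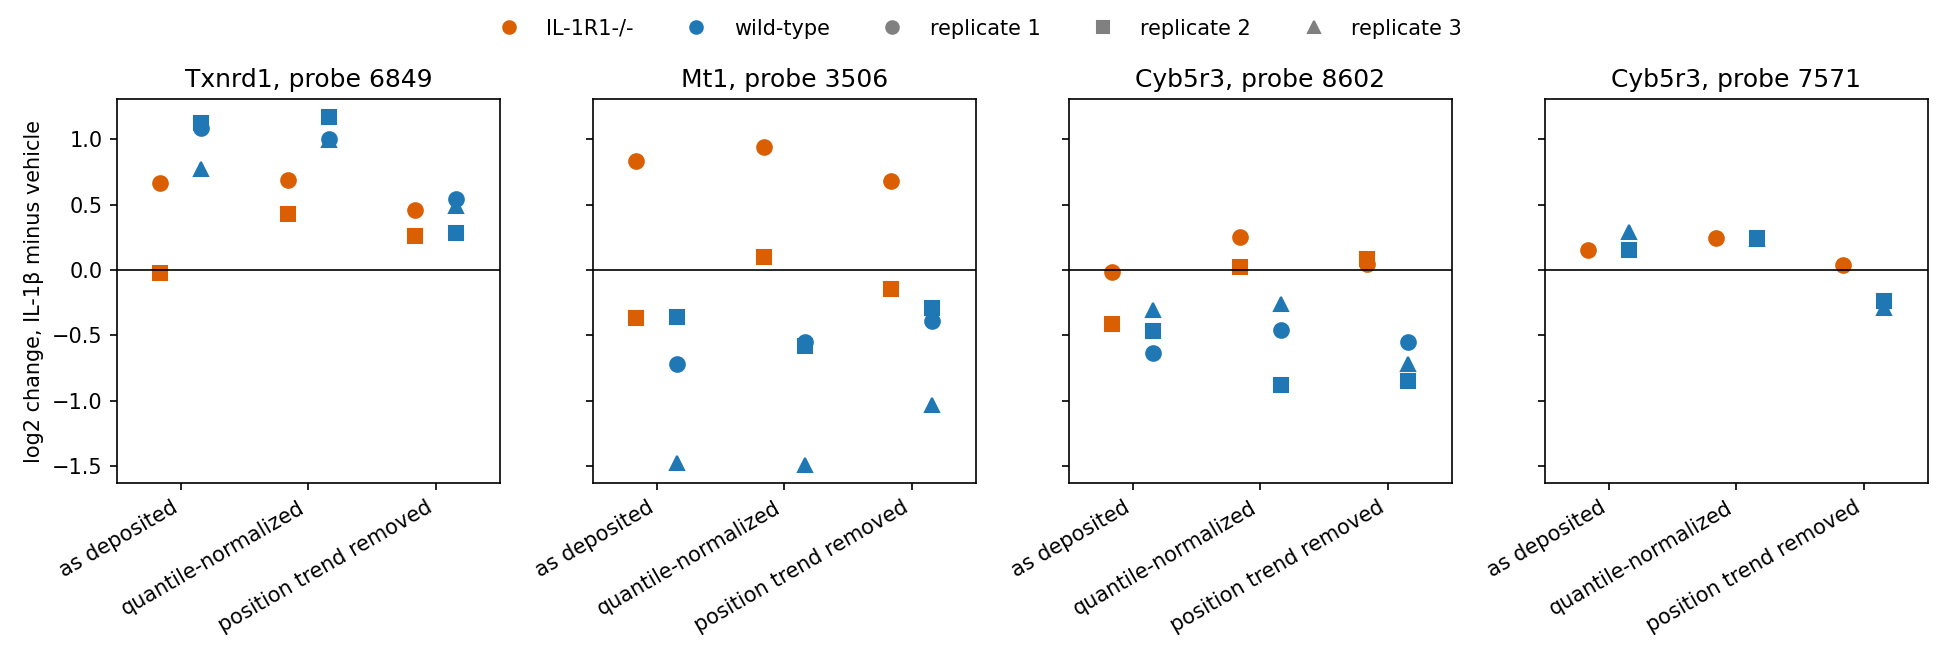
Log2 change with IL-1β minus vehicle in each culture (vertical axis; orange IL-1R1-/-, blue wild-type; symbols are replicates) on 3 scales: as deposited, quantile-normalized and with the position trend removed. The wild-type changes of Txnrd1 shrink to 0.28 to 0.54 with the trend removed, while those of Cyb5r3 probe 8602 lie between -0.85 and -0.55.

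The wild-type minus IL-1R1-/- difference of the IL-1β response contains the values that chose the genes, so it is a description and nothing is read from the counts beside it. It was 0.50 ± 0.27 for Txnrd1, -1.40 ± 0.35 for Mt1 and -0.67 ± 0.29 for Cyb5r3 (SE on the log2 scale). With the position trend removed it was 0.08 ± 0.20 for Txnrd1, -0.84 ± 0.29 for Mt1 and -0.77 ± 0.19 for Cyb5r3. In limma 0 of the 3 genes passed the adjusted threshold, against 0.158% of all probes in both versions. At an unadjusted threshold of 0.05, Mt1 and Cyb5r3 met it in both versions, 2 of 3 genes, against 14.1% of all probes and 8.07% after trend removal. Before trend removal Mt1 and Cyb5r3 were higher in both IL-1R1-/- pairs and lower in all 3 wild-type pairs. Such an opposed pattern, in either direction, was found for 12.4% of all probes, and for 7.84% after trend removal. After trend removal Cyb5r3 kept the pattern and Mt1 did not, with -0.15 in IL-1R1-/- replicate 2. As deposited neither gene had it: IL-1R1-/- replicate 2 had -0.37 for Mt1, and the IL-1R1-/- pairs had -0.02 and -0.41 for Cyb5r3.

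The genotypes were compared on culture means, each the mean of the IL-1β and vehicle arrays of a culture, because this mean is independent of the change within a culture. Txnrd1 culture means were 15.12 and 15.81 in IL-1R1-/- glia, against 15.57, 15.21 and 15.89 in wild-type glia. Mt1 culture means were 16.40 and 17.68 in IL-1R1-/- glia, against 19.31, 18.20 and 16.69 in wild-type glia. Cyb5r3 culture means were 15.37 and 15.75 in IL-1R1-/- glia, against 15.88, 15.53 and 15.65 in wild-type glia. The genotypes overlapped for every gene. The IL-1R1-/- minus wild-type difference was -0.10 ± 0.28 for Txnrd1, -1.03 ± 0.69 for Mt1 and -0.12 ± 0.20 for Cyb5r3 (SE on the log2 scale; limma adjusted p = 0.995 for each). After trend removal it was -0.20 ± 0.31 for Txnrd1 (limma adjusted p = 0.916), -0.92 ± 0.65 for Mt1 (adjusted p = 0.854) and -0.21 ± 0.20 for Cyb5r3 (adjusted p = 0.869). In limma 0 of 3 genes passed and 0 had an unadjusted p under 0.05, a threshold met by 3.68% of all probes and by 5.13% after trend removal. An adjusted p that misses the threshold does not show equal levels, least of all for Mt1 with its SE of 0.69. The Mt1 difference was -0.40 without wild-type replicate 1 and -1.70 without wild-type replicate 3, and it was -0.44 without IL-1R1-/- replicate 1 and -1.64 without IL-1R1-/- replicate 2.

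Single treatments share arrays with the selecting response and are given as values. With IL-1β the IL-1R1-/- minus wild-type difference of group means was -0.34 for Txnrd1, -0.33 for Mt1 and 0.21 for Cyb5r3, and the groups overlapped for all. With vehicle it was 0.15 for Txnrd1, -1.73 for Mt1 and -0.46 for Cyb5r3. Among these only the vehicle groups of Cyb5r3 did not overlap. The share of all probes with genotypes apart in this way was not counted, so nothing is read from this gap. After trend removal the difference with IL-1β was -0.24 for Txnrd1, -0.50 for Mt1 and 0.17 for Cyb5r3, and with vehicle it was -0.16 for Txnrd1, -1.34 for Mt1 and -0.60 for Cyb5r3.

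Other genes of the same chemistry were followed through lists of the thioredoxin, glutathione, NRF2, NADPH, oxidase, metal and cytochrome b5 systems, of which 30 genes beside the 3 were tested. In wild-type glia 2 of the 30 rose with IL-1β in limma, 1 fell and 27 did not pass, where 6.18% of all tested probes passed. Their median change was 0.07, against -0.04 for all probes, and 16 of 30 were positive, against 44.5% of all probes. The glutathione transferase family member Mgst3 rose by 0.78 (adjusted p = 0.0285 in limma), and Ncf4, a subunit of the phagocyte NADPH oxidase, rose by 0.77 (adjusted p = 0.0291 in limma). The copper chaperone Atox1 fell by 0.69 (adjusted p = 0.0310 in limma). With the position trend removed 0 of the 30 passed, against 0.403% of all probes, with changes of 0.23 for Mgst3, 0.22 for Ncf4 and -0.51 for Atox1, and a median of 0.06 over the 30 genes. In IL-1R1-/- glia 0 of the 30 passed and 17 were positive, against 51.7% of all probes, with a median of 0.05.

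In the thioredoxin list 6 of 22 genes were tested, and Txnrd1 was the only one called in wild-type glia, before trend removal. The peroxiredoxin Prdx2, which draws its electrons from thioredoxin, had log2 changes of 0.33 in IL-1R1-/- glia and -0.42 in wild-type glia, and with the trend removed 0.12 in IL-1R1-/- glia and -0.26 in wild-type glia. Its mitochondrial relative Prdx3 had 0.06 in IL-1R1-/- glia and -0.26 in wild-type glia, and both signs turned with the trend removed, to -0.11 in IL-1R1-/- glia and 0.07 in wild-type glia. Sesn2, a stress-induced sestrin, had 0.38 in IL-1R1-/- glia and -0.18 in wild-type glia, and the wild-type sign turned with the trend removed (0.20 in IL-1R1-/- glia and 0.14 in wild-type glia). No tested thioredoxin gene beside Txnrd1 thus moved with it past the threshold. Txn1, its substrate, was not measured by a probe used here.

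Of the glutathione genes 4 of 34 were tested. Mgst3 had 0.39 in IL-1R1-/- glia, against 0.78 in wild-type glia, and with the trend removed 0.30 in IL-1R1-/- glia and 0.23 in wild-type glia. Gclm, the modifier subunit of the enzyme that begins glutathione synthesis, had 0.35 in IL-1R1-/- glia and 0.44 in wild-type glia, and with the trend removed 0.0020 in IL-1R1-/- glia and 0.15 in wild-type glia. Gstz1 had 0.30 in IL-1R1-/- glia and 0.28 in wild-type glia, and its wild-type change turned to -0.21 with the trend removed. Gsta3 had -0.48 in IL-1R1-/- glia and 0.02 in wild-type glia, and with the trend removed -0.23 in IL-1R1-/- glia and 0.05 in wild-type glia. Before trend removal 4 of 4 tested glutathione genes were thus positive in wild-type glia, against 44.5% of all probes. In IL-1R1-/- glia 3 of 4 were positive, against 51.7% of all probes, and Gsta3 was negative. Of the superoxide, haem and NRF2 list 7 of 29 were tested and 0 passed. NRF2 itself, Nfe2l2, had -0.03 in IL-1R1-/- glia and 0.38 in wild-type glia, and with the trend removed 0.22 in IL-1R1-/- glia and 0.42 in wild-type glia. Its partner Maff had -0.19 in IL-1R1-/- glia and 0.43 in wild-type glia, and with the trend removed -0.07 in IL-1R1-/- glia and 0.39 in wild-type glia. Nqo1, another known target of NRF2, had -0.68 in IL-1R1-/- glia and 0.26 in wild-type glia, and with the trend removed -0.85 in IL-1R1-/- glia and 0.24 in wild-type glia. Keap1, which holds NRF2 in check, had 0.05 in IL-1R1-/- glia and -0.20 in wild-type glia, and with the trend removed 0.28 in IL-1R1-/- glia and -0.06 in wild-type glia. The wild-type signs of these 4 genes did not turn with the trend removal, and the IL-1R1-/- sign of Nfe2l2 did. Pgd, which makes NADPH and was the 1 tested gene of 10 in its list, had -0.36 in IL-1R1-/- glia and -0.08 in wild-type glia, and with the trend removed -0.10 in IL-1R1-/- glia and -0.11 in wild-type glia. Of the oxidases 4 of 13 were tested. Beside Ncf4, the wild-type change was 0.35 for Nos3, 0.26 for Xdh and -0.04 for Cybb, and with the trend removed 0.09 for Nos3, 0.08 for Xdh and -0.08 for Cybb.

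Of the metal list 8 of 26 genes were tested, and Mt2 and Mt3 were not measured by probes used here. The zinc exporter Slc30a1, like Mt1 a known target of MTF1, had 0.17 in IL-1R1-/- glia and -0.40 in wild-type glia, and with the trend removed 0.04 in IL-1R1-/- glia and -0.14 in wild-type glia. Its pairs did not all go one way, with -0.01 and 0.34 in IL-1R1-/- glia and 0.03, -0.17 and -1.07 in wild-type glia, where replicate 3 carried most of the change. The zinc importer Slc39a4 had 1.05 ± 0.27 in IL-1R1-/- glia (SE, n = 2 pairs; adjusted p = 0.601 in limma) and 0.29 in wild-type glia, and with the trend removed 0.92 in IL-1R1-/- glia and 0.63 in wild-type glia. Of the cytochrome b5 list 3 of 21 genes were tested. Fads1, a desaturase, had 0.26 in IL-1R1-/- glia and -0.51 in wild-type glia, and with the trend removed 0.46 in IL-1R1-/- glia and -0.50 in wild-type glia. Cyb5b, the cytochrome b5 of the outer mitochondrial membrane, had 0.17 in IL-1R1-/- glia and -0.66 in wild-type glia, and with the trend removed -0.02 in IL-1R1-/- glia and -0.30 in wild-type glia. All 3 tested b5 genes were negative in wild-type glia in both versions. Of all probes 44.5% were positive there, and 50.6% with the trend removed. Cyb5r3 was chosen on this response, so nothing is read from its part in the count. Of the 3 genes only Cyb5r3 was called, after trend removal. The dim Cyb5r3 probe, 7571, is not in this count and had 0.24 in wild-type glia before trend removal and -0.26 after it.

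**Figure D4:**
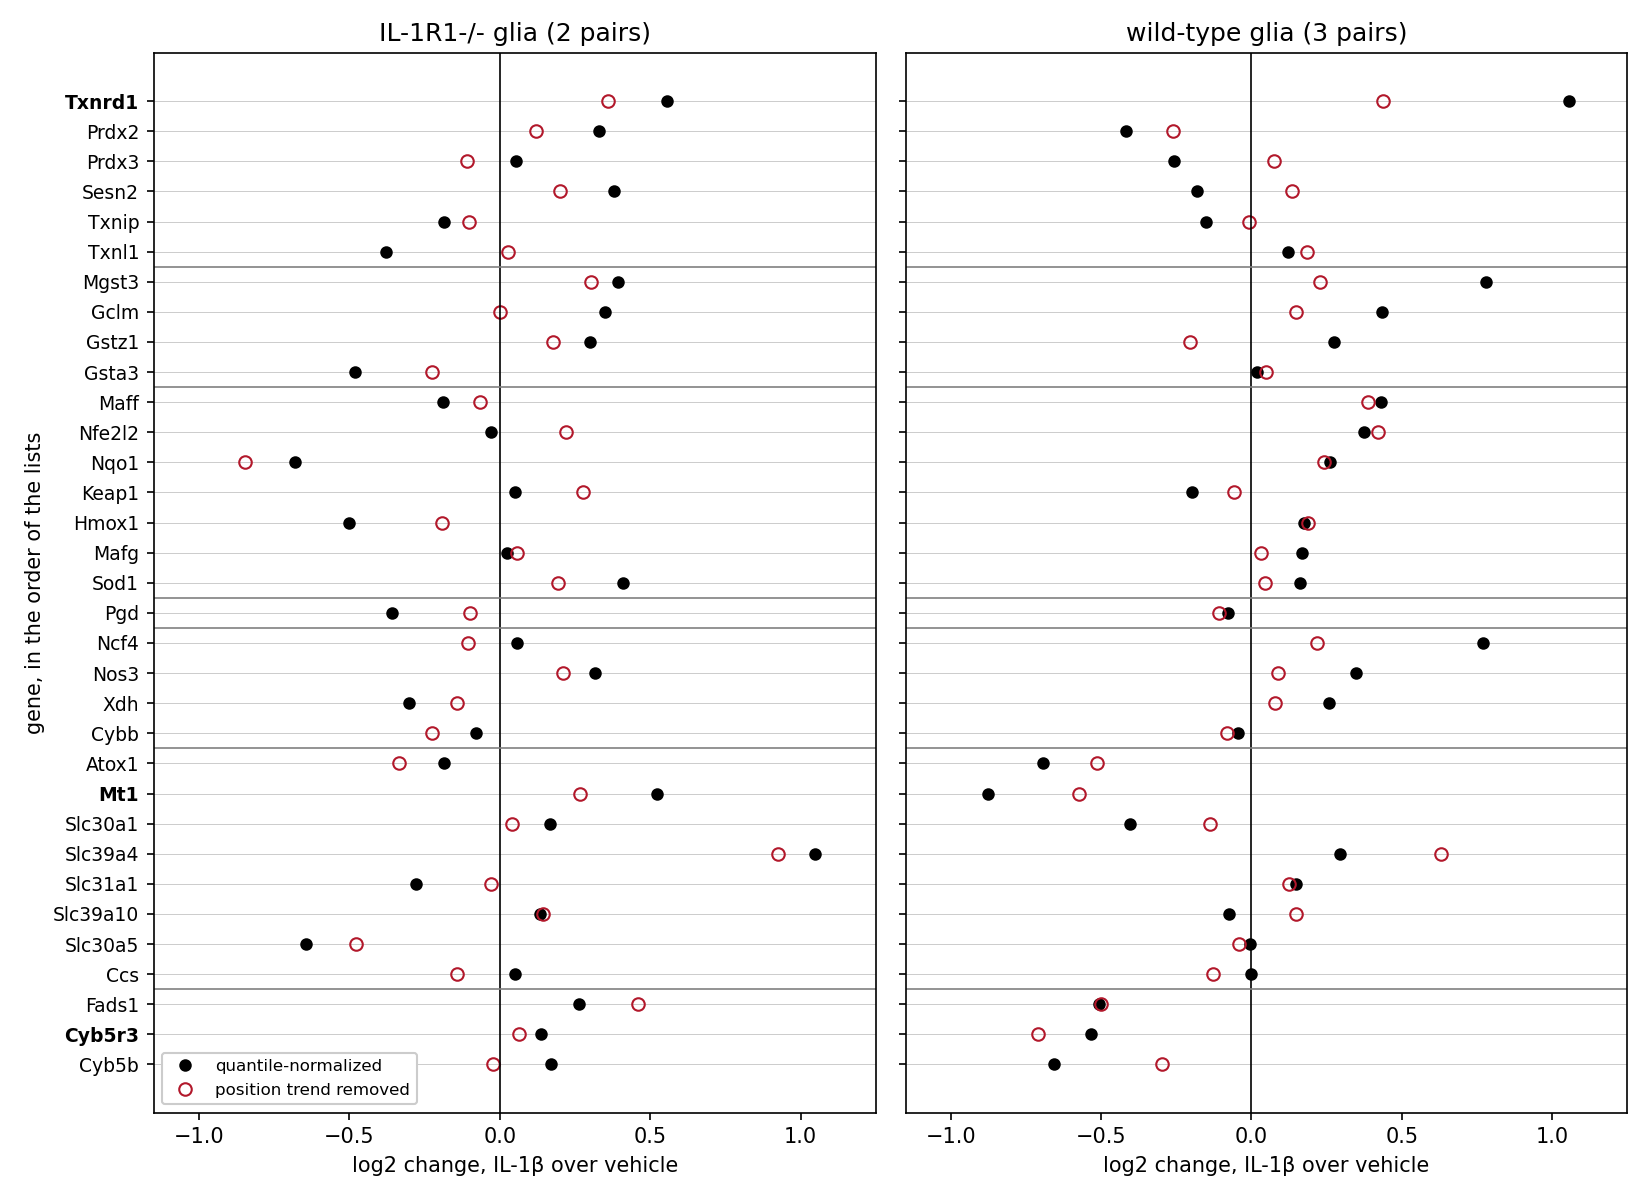
Log2 change with IL-1β over vehicle (horizontal axis) for all 3 genes and the other 30 tested genes of the redox, metal and cytochrome b5 lists, in IL-1R1-/- (left) and wild-type glia (right); grey lines part the lists, filled points are quantile-normalized and open points have the position trend removed. In wild-type glia Txnrd1 lies farthest to the right at 1.05 and Mt1 farthest to the left at -0.87 before trend removal. Both genes were chosen on this response, so nothing is read from their place. With the trend removed Slc39a4 lies farthest to the right at 0.63 and Cyb5r3 farthest to the left at -0.71.

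Beside the lower Mt1 and Cyb5r3 of wild-type glia given IL-1β, 2 of the 4 measured astrocyte markers fell and the other 2 did not pass. Of all tested probes 6.18% passed, and 0.403% with the trend removed. Markers of other cell types moved too. The endothelial marker Emcn rose by 0.84 and passed before trend removal, 1 of 4 in its list. Of the 3 tested oligodendrocyte markers 0 passed and 0 were positive, with a median of -0.28. The summed normalized intensity of the 4 measured astrocyte markers (Id4, Glul, Sox9, Slc1a2) was 104953 to 161755 in IL-1R1-/- IL-1β and 119938 to 164962 in IL-1R1-/- vehicle glia. It was 101790 to 115733 in wild-type IL-1β and 185262 to 197439 in wild-type vehicle glia, with no overlap. How often other sets of probes part in this way was not counted. Id4, a transcriptional regulator of astrocyte precursors, fell by 1.60 in wild-type glia, and Glul, glutamine synthetase, fell by 0.84. Both passed the adjusted threshold in limma. Only Id4 was still called after trend removal, at -1.28 for Id4 and -0.47 for Glul. The marker lists were chosen with earlier results of these data known, so these calls are a description and not a test. Sox9 had -0.20 (limma adjusted p = 0.614), and Slc1a2, a glutamate transporter, had 0.10 (limma adjusted p = 0.825), with -0.63 for Sox9 and 0.14 for Slc1a2 after trend removal. The summed microglial markers (C1qc, Tyrobp, Itgam, Cd68, Ctss) were 239522 to 330262 in wild-type IL-1β and 305039 to 316837 in wild-type vehicle glia. In IL-1R1-/- glia they were 288085 to 325995 with IL-1β and 343320 to 437799 with vehicle. No marker was listed at 0. Fewer cells of a type and less RNA per cell cannot be told apart in such bulk samples, and the part of the astrocyte markers in the Mt1 and Cyb5r3 values was not tested.

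The likeness of other probes to the 3 genes was taken as Pearson's r of normalized log2 values over the 10 arrays, which share cultures and processing. The most alike to Txnrd1 were Rrp7a (r = 0.911), Helz (r = 0.888) and Zfp28 (r = 0.881). Those most alike to Mt1 were Erbb3 (r = 0.938), Zfp954 (r = 0.927) and Sdhb (r = 0.925). Those most alike to Cyb5r3 were Pbdc1 (r = 0.946), Asrgl1 (r = 0.919) and Parva (r = 0.917). With the position trend removed all of these names gave way to others, led by Cul5 for Txnrd1 (r = 0.913), Tmem167 for Mt1 (r = 0.946) and Tm9sf3 for Cyb5r3 (r = 0.913).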

How the data were processed

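The members and the gene lists were chosen with earlier results of these data known. Calls of list members in wild-type glia are therefore a description and not a test. Total RNA of primary mixed glia (TRIzol) was DNase-treated, then copied to cDNA carrying a radio-labelled nucleotide, per the labels' protocols. The deposited values are linear spot intensities, 1 column per array. The scanner, background correction and normalization of the authors are not stated in the sources used here. Of the columns 0 had no sample.

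Columns of IL-1R1-/- replicate 3 were left out: its vehicle column held wild-type vehicle replicate 1 at 1 ratio (1.12) for 5959 of 5982 shared probes, and its IL-1β column held IL-1R1-/- vehicle replicate 1 at 1 ratio (1.67) for 6531 of 6584, within 0.0001 on the log2 scale. Other pairs of columns shared 1 ratio at no more than 0.0857% of probes.

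Log2 intensities of the 5713 probes with a value on all 10 arrays (65.4%) were quantile-normalized and fitted with lmFit and eBayes of limma 3.58.1 in R 4.3.3, with culture as a block, 1 IL-1β term per genotype, and two-sided p-values adjusted over these probes (Benjamini-Hochberg) with a threshold of 0.05. Errors of fits are SE. Culture means were fitted with genotype alone. The pairing is that of the design text and the replicate numbers. Deviations from group means correlated within cultures at 0.562 for IL-1R1-/- (1 value, since 2 cultures mirror each other) and at 0.468, 0.582 and 0.261 for wild-type, which joint processing could also give.

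For the position trend, loess (degree 1, span 0.2) smoothed the deviation of each array from the probe mean over rows and columns of 23 inferred plates, split after plate 11, and the surface was subtracted. No spot coordinates were used. Probe 7571 was fitted on the arrays that hold it. The number of arrays limits the precision. The fit was tested on simulated data. All probes of the 3 genes are given. Of each list up to 4 members with the smallest p in the wild-type fit are named, and for likeness the 3 highest r. Alternatives were other normalization, no block, gaps kept, all 12 columns, dim probes (25%) left out, 1 genotype alone, and each culture left out. Gene names are those of the platform annotation, and coordinates and sequences are from RefSeq.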

Additional observations from a re-analysis of the deposited data

Results flagged for a closer look

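The response of Mt1 differed in direction between the genotypes: all 3 wild-type pairs were lower with IL-1β and both IL-1R1-/- pairs were higher, a wild-type minus IL-1R1-/- difference of -1.40 on the log2 scale. With the position trend removed 1 of the IL-1R1-/- pairs was lower too, at -0.15, and as deposited the same pair had -0.37. Before trend removal the 24 nearest tested probes had opposed medians as well, -0.33 in wild-type and 0.17 in IL-1R1-/- glia. The part of position in this difference was not tested.

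The pairs of Cyb5r3 probe 8602 were opposed in the same way, with a difference of -0.67, and with the trend removed all kept these directions. Its 24 nearest tested probes had medians of 0.24 in wild-type and 0.15 in IL-1R1-/- glia. For the intensities as deposited both IL-1R1-/- pairs of probe 8602 were lower, at -0.02 and -0.41. Probe 7571 did not have this pattern. Fitted on the arrays that hold it, its difference was -0.0080, from 0.24 in wild-type and 0.25 in IL-1R1-/- glia. With the trend removed its difference was -0.30. The difference contains the response that chose the genes, limma called neither gene, and 12.4% of all tested probes had pairs opposed in this way (7.84% with the trend removed).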

How the results depend on the processing

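The trend removal for every comparison and its combinations with a culture left out, with no block and with gaps kept were set after earlier results were known, the combinations after seeing the data. The number of the 3 genes called in wild-type glia was 2. Shares of all tested probes called in the same setting are given in brackets (6.18% in the main fit). It was 1 with the position trend removed (0.403%), 1 with gaps kept and the trend removed (1.43%), and 1 with all 12 columns (3.19%), where Txnrd1 alone was complete. With no replicate block it was 0 (0.245%, and 0.14% with trend removal), although the values are the same. With 1 culture left out it ranged from 1 to 2 (0.844% to 5.2%), and it was 0 in each case with the trend removed (0.227% to 0.459%). The number called was 0 under every alternative for the other 3 comparisons. The highest shares there were 4.25% in IL-1R1-/- glia, 4.62% for the difference of responses and 0.0577% for culture means.

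Of 224 values of single probes under alternatives, 186 kept their direction and side of the threshold, 22 lost the call, 2 gained it and 14 turned sign. Wild-type changes ranged from 0.34 to 1.09 for Txnrd1 (past the threshold in 11 of 20 alternatives), from -1.02 to -0.28 for Mt1 (6 of 19) and from -0.78 to -0.33 for Cyb5r3 probe 8602 (2 of 19). Probe 7571 turned to -0.26 in wild-type glia with gaps kept and the trend removed. In IL-1R1-/- glia Cyb5r3 turned to -0.25 with median centring and -0.22 with no normalization, and Mt1 to -0.073 without IL-1R1-/- replicate 1 and with the trend removed. Txnrd1's difference of responses was -0.015 without IL-1R1-/- replicate 2 and -0.015 without wild-type replicate 1, both with the trend removed. The genotype difference of culture means was 1.77 for Txnrd1, 1.12 for Mt1 and 1.76 for Cyb5r3 with no normalization, on scales that differ between cultures. Without IL-1R1-/- replicate 1 it was 0.23 for Txnrd1 and 0.060 for Cyb5r3 (0.081 and 0.028 with the trend removed), and without wild-type replicate 3 it was 0.11 for Txnrd1. Over the cultures left out it ranged from -0.44 to 0.23 for Txnrd1, from -1.70 to -0.40 for Mt1 and from -0.31 to 0.060 for Cyb5r3. The cause of these turns was not tested. Over all probes 0 were called in IL-1R1-/- glia, against 177 with median centring, 153 with no normalization and 336 with IL-1R1-/- arrays alone, and 353 in wild-type glia, against 23 with the trend removed.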
